A study of Mus musculus with 48 samples.

Results

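The list examined here is made of 31 Purkinje cell (PC) genes, among 22979 to 23109 gene symbols in a table. A row was taken where its gene symbol equalled a name on the list, and no measured value was used to choose it, although the names were chosen with earlier results of these data known. All 31 genes were present in all 8 tables. RNA was sequenced from the cerebellum and the inferior olive of male mice of 2 models of spinocerebellar ataxia type 1, a disease caused by expansion of the glutamine repeat of ataxin-1. The question addressed was how the mutant-to-WT ratios of PC genes compare between a PC-driven transgene and a knock-in, at 5 and 12 weeks of age. ATXN1-82Q transgenic mice (Tg, on FVB/NJ) express human ATXN1 with an expanded repeat from the Pcp2 promoter, which is active in PCs, and were compared with WT/FVB controls. Atxn1 154Q/2Q knock-in mice (KI, on C57BL/6J) carry an expanded repeat in 1 copy of mouse Atxn1 under its own regulation, hence in many cell types, and were compared with WT/C57 controls. Each model, tissue and age gave a table of 3 mutant and 3 WT libraries, 48 libraries in all. The models also differ in strain, in the length of the repeat, in the species of the protein and in the cells that make it, and these cannot be told apart in any comparison of one model with the other.

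PCs are the large GABAergic neurons that form the sole output of the cerebellar cortex. They receive granule cell input through parallel fibres and inferior olive input through climbing fibres. Their dendrites are rich in metabotropic glutamate receptor signalling that releases calcium through the inositol trisphosphate (IP3) receptor. Rora and the LIM homeodomain factors Lhx1 and Lhx5 act in their differentiation, and Pcp2 is a classic marker of the cell type.

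The promoter windows of the list are shown first because the members turned out to move together and because the Pcp2 promoter drives the transgene. RefSeq windows (GRCm38.p6, the same assembly as mm10) reach from 250 bases before to 50 bases after a transcription start and were present for 23 of the 31 genes, in 35 windows of 300 bases. Dagla, Doc2b, Ebf2, Lhx5, Mtss1, Ppp1r17, Shank2 and Skor2 had no entry. On both strands the windows were searched for the letters TGAATGAA and TGAATGGA, octamers bound by Capicua, a repressor that forms a complex with ataxin-1, and for AGGTCA, the half-site bound by RORα, the product of Rora. TGAATGAA was in 0 member windows and in 1.30% of all 32851 windows. TGAATGGA was in 1 member window, or 2.86%, against 1.21% of all windows. AGGTCA was in 5 member windows of 3 genes, or 14.3%, against 16.3% of all windows, so its share in the members was close to that of all promoters. A match describes letters in a window and shows no binding. The matches are printed 5′ to 3′ on the strand of the gene, with the motif in capitals, so that the Pcp2 and Dner sites can be compared with the reverse-strand match of Arhgef33. The lines give, in order, the Capicua octamer of Pcp2 at chr8:3625269-3625298 (minus strand), the half-sites of Pcp2 at chr8:3625542-3625571 and chr8:3625045-3625074 (minus strand), those of Dner at chr1:84696315-84696344 and chr1:84696206-84696235 (minus strand), and that of Arhgef33 at chr17:80307319-80307348 (plus strand).
Pcp2: ctcagggcaaaTGAATGGAttcttagtact
Pcp2: aaaggccttctcAGGTCAgagaccaggaga
Pcp2: ggagtcaggggcAGGTCAgggaaggagact
Dner: cttggatgtgcaAGGTCAggtccttgagaa
Dner: ctcgtgagaataAGGTCAggccggtcccgc
Arhgef33: cacttgattagcTGACCTggagcttatgta

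Values are FPKM, a level scaled to transcript length and library size, which the authors normalized within each table, so levels of different tables are set side by side here as a description only. Fragment totals were not used here and the depth of the libraries is unknown, while 12345 to 12967 genes reached 1 FPKM in a library. In WT/C57 at 12 weeks, 28 of the 31 genes had a higher level in the cerebellum than in the inferior olive, the median ratio was 5.06-fold, and Pcp2 was 214-fold and the phosphatase inhibitor Ppp1r17 172-fold higher. Pcp4l1 (a small relative of Pcp4), the histamine receptor Hrh3 and the small GTPase Rasd2 had the lower level in the cerebellum in both strains at both ages, with 0.320-fold, 0.740-fold and 0.771-fold in WT/C57 at 12 weeks, so these 3 are not restricted to the cerebellum. Over the other WT groups 27 of 31 (WT/C57 at 5 weeks), 27 of 31 (WT/FVB at 5 weeks) and 26 of 30 (WT/FVB at 12 weeks, without Arhgef33) were higher in the cerebellum. Gad2, a glutamate decarboxylase of GABA neurons in general, stood at 0.828-fold to 1.04-fold, below 1 in all WT groups but WT/C57 at 12 weeks. Some libraries stood apart from the others of their table, and not all are named here. Choroid plexus genes, which varied widely between libraries, are given further on. The library KI cerebellum 12 weeks WT replicate 1 had 10.4 FPKM over 7 hindbrain Hox genes, against 0.0548 to 1.73 FPKM in the other libraries of that table, and 3252 FPKM over the oligodendrocyte list against 2157 and 2411 FPKM in its fellow WT libraries. The library Tg inferior olive 5 weeks mutant replicate 2 held Pcp2 at 21.96 FPKM, and is taken up with the olive.

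In the Tg cerebellum most PC genes were lower than in WT at both ages, and in the KI cerebellum they were lower by less. At 5 weeks 26 of 31 members were called lower in Tg and 0 higher, where 3.73% of all genes tested were called lower and 0.428% higher. At 12 weeks 25 were called lower and 0 higher, against 5.29% and 2.29% of all genes. In KI the call was made for 0 members at 5 weeks, against 0.0075% of all genes, and for 14 lower and 1 higher at 12 weeks, against 3.68% lower and 2.07% higher of all genes. A call is an adjusted p under 0.05 by limma, with Benjamini-Hochberg adjustment over all genes of the table. The median log2 fold change of the members was -0.72 in Tg at 5 weeks and -1.002 at 12 weeks, and -0.24 and -0.34 in KI, while the median over all genes tested was -0.0048, -0.017, -0.0020 and 0.012 in the same order. All mutant libraries lay below all WT libraries for 26 and 27 members in Tg at 5 and 12 weeks, against 12.5% and 17.1% of all genes, and for 18 in KI at 12 weeks, against 15.1%. In tissue RNA, fewer PCs and less RNA of these genes per PC cannot be told apart. The paper places 12 weeks in Tg mice at the start of molecular layer thinning and before gross PC loss. The number of PCs was not tested here.

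The same picture was seen in single libraries, when each was given the median over the members of its log2 ratio to the WT mean. In the Tg table at 5 weeks this was 0.0033, 0.035 and -0.030 in the WT libraries and -0.76, -0.81 and -0.71 in the mutants. In the Tg table at 12 weeks it was 0.11, 0.031 and -0.14 in the WT libraries and -0.995, -0.92 and -1.02 in the mutants. For KI it was -0.053, 0.053 and -0.024 in the WT libraries and -0.23, -0.17 and -0.30 in the mutants at 5 weeks, and -0.15, 0.062 and 0.051 in the WT libraries and -0.32, -0.26 and -0.41 in the mutants at 12 weeks. Mutants and WT did not overlap in any of the 4 cerebellum tables, and every Tg mutant library was below every KI mutant library of its age. Lack of overlap was not particular to the cerebellum, since it was also seen with narrow gaps in the inferior olive. The highest mutant and lowest WT libraries there were at -0.043 and -0.018 in the Tg table at 12 weeks. In the KI olive they were at -0.082 and -0.069 at 5 weeks and at -0.049 and -0.026 at 12 weeks. In the KI cerebellum at 12 weeks the lowest WT library was replicate 1, the one with Hox and oligodendrocyte genes.

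**Figure D1:**
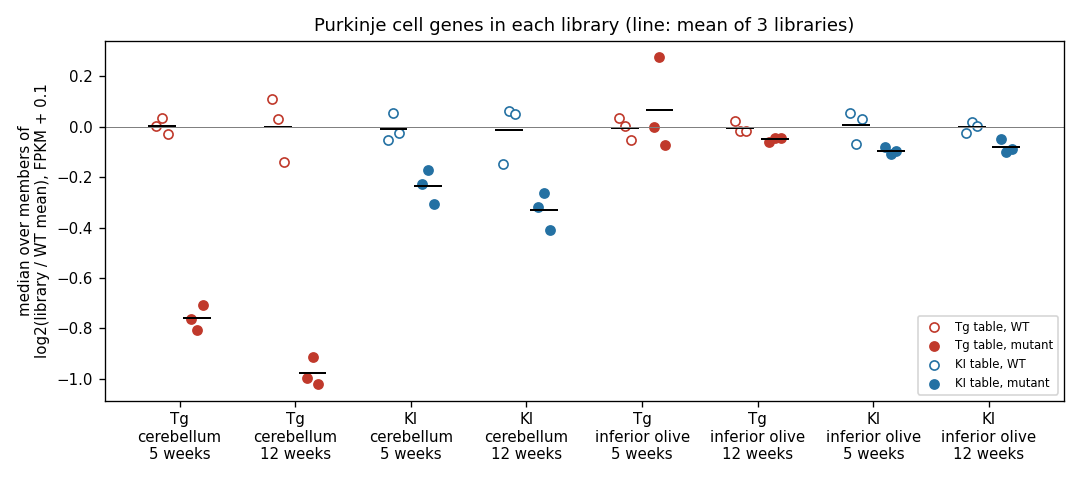
Median over the 31 Purkinje cell genes (those tested) of log2(library / WT mean of its table) for each of the 48 libraries, by table; open points are WT, filled points mutant, and lines are means of 3 libraries. The Tg cerebellum mutants sit between -1.02 and -0.71, the KI cerebellum mutants between -0.41 and -0.17, and the inferior olive libraries near 0 except 1 Tg library at 0.28.

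Of the signalling genes in Tg, 10 of 13 were called lower at 5 weeks and 9 of 13 at 12 weeks. Gng13, a G protein gamma subunit, was at 591, 579 and 553 FPKM in WT/FVB and 174, 147 and 143 FPKM in Tg at 5 weeks. At 12 weeks it was at 555, 505 and 419 FPKM in WT/FVB and 78.6, 93.8 and 82.1 FPKM in Tg. Tg libraries were far below WT without overlap, at 26.9% of the WT mean at 5 weeks (log2 fold change -1.90 ± 0.072 SE, adjusted p = 1.39e-06) and 17.2% at 12 weeks (log2 fold change -2.53 ± 0.11 SE, adjusted p = 2.61e-05), the largest decrease of the list at both ages. Itpka (chr2:119742337-119751253 in mm10), the kinase that phosphorylates IP3, was at 40.0, 41.7 and 37.2 FPKM in WT/FVB and 16.1, 14.9 and 15.1 FPKM in Tg at 5 weeks. At 12 weeks Itpka stood at 38.2, 38.5 and 32.6 FPKM in WT/FVB and 9.01, 9.26 and 8.28 FPKM in Tg. It fell to 24.3% of the WT mean at 12 weeks (log2 fold change -2.03 ± 0.080 SE, adjusted p = 2.52e-05). Stk17b (chr1:53755512-53785215), a serine/threonine kinase, was at 38.8, 41.4 and 36.5 FPKM in WT/FVB and 15.2, 13.9 and 14.0 FPKM in Tg at 5 weeks. At 12 weeks Stk17b was at 39.5, 35.9 and 34.8 FPKM in WT/FVB and 9.69, 10.2 and 10.2 FPKM in Tg, again without overlap (log2 fold change -1.43 at 5 weeks and -1.86 at 12 weeks).

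Other signalling genes were called lower too. Arhgef33, a guanine nucleotide exchange factor, was at 54.8, 54.7 and 49.4 FPKM in WT/FVB and 25.0, 22.8 and 23.4 FPKM in Tg at 5 weeks. At 12 weeks Arhgef33 was at 56.3, 53.8 and 43.4 FPKM in WT/FVB and 13.9, 15.5 and 14.99 FPKM in Tg. Its log2 fold change was -1.15 at 5 weeks and -1.78 at 12 weeks (adjusted p = 4.78e-05). Garnl3, a protein with a Rap GTPase-activating domain, was at 50.7, 49.3 and 51.6 FPKM in WT/FVB and 21.8, 21.3 and 22.8 FPKM in Tg at 5 weeks. At 12 weeks Garnl3 was at 60.1, 63.1 and 51.5 FPKM in WT/FVB and 18.2, 18.4 and 17.3 FPKM in Tg, so that all Tg libraries were under all WT libraries at both ages (log2 fold change -1.20 and -1.69). Pcp2, a modulator of Gi and Go proteins, was at 736, 663 and 646 FPKM in WT/FVB and 394, 341 and 367 FPKM in Tg at 5 weeks. At 12 weeks Pcp2 was at 688, 614 and 565 FPKM in WT/FVB and 219, 256 and 258 FPKM in Tg. Tg libraries held 53.9% of the WT mean at 5 weeks (log2 fold change -0.89 ± 0.067 SE, adjusted p = 7.48e-05) and 39.3% at 12 weeks (log2 fold change -1.35 ± 0.099 SE, adjusted p = 0.000183). The transgene is driven by the Pcp2 promoter, and whether transcribed Pcp2 sequence of the transgene adds to this value was not tested. Of the cGMP pathway, the kinase Prkg1 was called lower at both ages with log2 fold changes of -0.41 and -0.63, and its substrate Ppp1r17 with -0.81 and -1.30. The receptor tyrosine phosphatase Ptprr was called lower with -0.56 and -1.002.

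Synapse and scaffold genes were called lower without exception, 6 of 6 at 5 weeks and 6 of 6 at 12 weeks. Grid2ip, a scaffold of the delta glutamate receptor at the parallel fibre synapse, was at 29.6, 30.9 and 28.2 FPKM in WT/FVB and 10.3, 10.3 and 10.9 FPKM in Tg at 5 weeks. At 12 weeks Grid2ip was at 32.7, 31.9 and 25.8 FPKM in WT/FVB and 5.57, 6.26 and 5.47 FPKM in Tg. Tg held 35.4% of the WT mean at 5 weeks (log2 fold change -1.49 ± 0.046 SE, adjusted p = 8.44e-07) and 19.2% at 12 weeks (log2 fold change -2.36 ± 0.10 SE, adjusted p = 2.61e-05). Doc2b, a calcium sensor of vesicle release, was at 39.5, 40.4 and 38.4 FPKM in WT/FVB and 17.1, 14.998 and 16.0 FPKM in Tg at 5 weeks. At 12 weeks Doc2b was at 40.8, 37.5 and 31.7 FPKM in WT/FVB and 10.1, 10.7 and 9.95 FPKM in Tg, with log2 fold changes of -1.30 and -1.82. Dagla (chr19:10245265-10304877), the lipase that makes an endocannabinoid, was at 29.4, 30.7 and 29.7 FPKM in WT/FVB and 14.9, 14.3 and 14.8 FPKM in Tg at 5 weeks. Its 12-week values were 32.3, 26.7 and 25.8 FPKM in WT/FVB and 9.90, 11.4 and 9.82 FPKM in Tg, and its log2 fold changes -1.02 and -1.43. Smaller decreases were measured for the postsynaptic scaffold Shank2 (-0.78 and -1.12) and for Mtss1 (-0.69 and -0.98) and Baiap2 (-0.54 and -0.77), which link membranes and actin.

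All 6 transcription factors were called lower in Tg at both ages. Rora, the nuclear receptor lost in staggerer mice, was at 54.5, 56.6 and 56.2 FPKM in WT/FVB and 41.4, 39.0 and 45.2 FPKM in Tg at 5 weeks. At 12 weeks Rora was at 57.1, 53.9 and 51.3 FPKM in WT/FVB and 35.4, 38.5 and 38.3 FPKM in Tg. Its decrease was -0.42 at 5 weeks and -0.53 at 12 weeks on the log2 scale, smaller than the median of the list. Skor2, a PC corepressor, was at 4.30, 4.61 and 4.47 FPKM in WT/FVB and 3.13, 3.19 and 3.53 FPKM in Tg at 5 weeks, where the genotypes did not overlap. At 12 weeks Skor2 was at 5.16, 4.74 and 3.36 FPKM in WT/FVB and 2.38, 2.67 and 2.31 FPKM in Tg (log2 fold changes -0.43 and -0.80), a call that was lost when any 1 library but WT replicate 3 was left out. Of the 6, Lhx5 had the lowest log2 fold change at both ages (-0.97 and -1.15), while Lhx1 had -0.55 and -0.86 and Ebf2 -0.72 and -0.73. Ebf1, a helix-loop-helix factor, was at 13.9, 14.1 and 14.4 FPKM in WT/FVB and 12.6, 12.0 and 12.3 FPKM in Tg at 5 weeks. At 12 weeks Ebf1 was at 16.0, 16.5 and 15.9 FPKM in WT/FVB and 12.8, 12.6 and 12.8 FPKM in Tg, a small decrease without overlap at both ages whose 5-week call was lost whichever library was left out (log2 fold change -0.20, adjusted p = 0.0242, and -0.34, adjusted p = 0.00677).

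Among the surface and transport genes, the Notch-like ligand Dner (-0.89 and -1.07) and the membrane protein Clmn (-0.91 and -1.06) were called lower in Tg at both ages. Slc9a3, a sodium-proton exchanger, was at 2.40, 2.76 and 2.82 FPKM in WT/FVB and 1.14, 1.16 and 1.11 FPKM in Tg at 5 weeks. At 12 weeks Slc9a3 was at 4.59, 4.34 and 3.84 FPKM in WT/FVB and 1.38, 1.64 and 1.70 FPKM in Tg (log2 fold changes -1.15 and -1.38), a low level that still separated the genotypes. Trim62, a ubiquitin ligase, was at 76.4, 73.4 and 75.7 FPKM in WT/FVB and 72.8, 70.1 and 77.6 FPKM in Tg at 5 weeks, where the libraries overlapped and no call was made (-0.034, adjusted p = 0.793). At 12 weeks Trim62 was at 75.3, 79.5 and 64.9 FPKM in WT/FVB and 56.9, 48.9 and 42.9 FPKM in Tg and was called lower (log2 fold change -0.57 ± 0.11 SE, adjusted p = 0.0234), a call lost in the fits that left out WT replicate 1, WT replicate 2, Tg replicate 2 or Tg replicate 3.

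**Figure D2:**
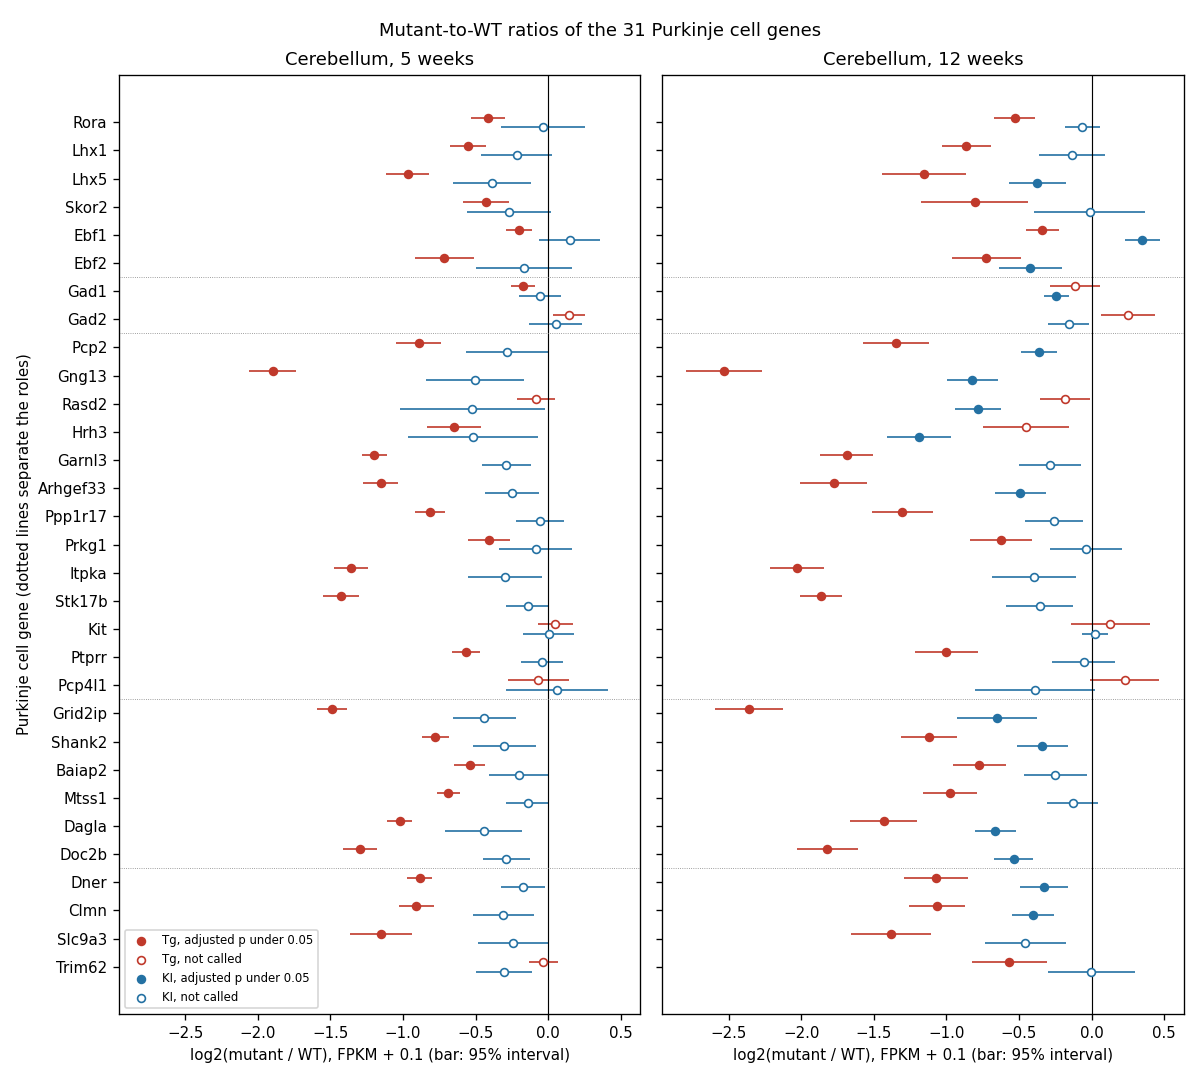
Log2 ratio of mutant to WT (FPKM + 0.1) for each of the 31 genes in the cerebellum at 5 weeks (left) and 12 weeks (right), with 95% intervals from limma; Tg in red, KI in blue, filled points called at an adjusted p under 0.05. At 12 weeks Tg points reach -2.53 for Gng13, while the lowest KI point is Hrh3 at -1.19.

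Members called in Tg at neither age were Gad2, Kit, Pcp4l1 and Rasd2. Gad1, the other glutamate decarboxylase, was at 211, 213 and 202 FPKM in WT/FVB and 185, 181 and 189 FPKM in Tg at 5 weeks, without overlap (log2 fold change -0.17, adjusted p = 0.0333), a call that 4 of the 6 fits without 1 library lost. At 12 weeks Gad1 was at 246, 214 and 220.2 FPKM in WT/FVB and 198, 206 and 223 FPKM in Tg, with overlap and no call (-0.12, 95% interval -0.29 to 0.058). Gad2 had log2 fold changes of 0.14 and 0.25 (adjusted p = 0.213 and 0.109), all Tg libraries being above WT at 12 weeks, where a fit with a replicate block called it higher. For Kit, a receptor tyrosine kinase also known from cerebellar interneurons, they were 0.049 and 0.13, with a 95% interval of -0.14 to 0.40 at 12 weeks. Those of Pcp4l1 were -0.068 and 0.23. Rasd2, a small GTPase, was at 15.5, 13.7 and 14.6 FPKM in WT/FVB and 13.1, 14.4 and 13.8 FPKM in Tg at 5 weeks. At 12 weeks Rasd2 was at 16.2, 14.9 and 17.2 FPKM in WT/FVB and 13.1, 14.8 and 14.5 FPKM in Tg (log2 fold changes -0.082 and -0.18), with overlapping genotypes at 5 weeks. Cerebellar interneurons also make both decarboxylases, and Kit is known from them, but whether this bears on the ratios was not tested.

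In the KI cerebellum at 5 weeks no member was called by limma, yet the values leaned downward. At an unadjusted p under 0.05, 16 of 31 members were lower, against 2.38% of all genes in that direction, and 16 had all KI libraries below all WT libraries, against 5.26% of all genes. Gng13 was at 443, 571 and 490.3 FPKM in WT/C57 and 404, 369.8 and 290.4 FPKM in KI, and Grid2ip at 23.3, 28.5 and 26.3 FPKM in WT/C57 and 18.9, 20.6 and 17.9 FPKM in KI. Both had all 3 KI libraries under the WT libraries (log2 fold change -0.51 ± 0.14 SE, adjusted p = 0.999 for Gng13, and log2 fold change -0.44 ± 0.093 SE, adjusted p = 0.865 for Grid2ip, the smallest adjusted p of the list). Pcp2 was at 684, 851 and 727 FPKM in WT/C57 and 636, 682 and 539.6 FPKM in KI, where 1 KI library came close to the lowest WT library (-0.29, 95% interval -0.57 to -0.00044). Rora was at 47.2, 55.3 and 58.7 FPKM in WT/C57 and 44.5, 53.7 and 59.6 FPKM in KI and overlapped (95% interval -0.33 to 0.26).

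In the KI cerebellum at 12 weeks the 3 lowest log2 fold changes were those of Hrh3, Gng13 and Rasd2, of which Gng13 was also the lowest in Tg. Hrh3, a Gi-coupled histamine receptor, was at 7.92, 6.61 and 7.86 FPKM in WT/C57 and 3.31, 2.92 and 3.40 FPKM in KI, or 43.0% of the WT mean (log2 fold change -1.19 ± 0.095 SE, adjusted p = 0.00225), the largest decrease of the list. Rasd2 was at 12.0, 11.1 and 10.2 FPKM in WT/C57 and 6.52, 6.31 and 6.41 FPKM in KI (log2 fold change -0.78 ± 0.068 SE, adjusted p = 0.00244). Neither overlapped between the genotypes, and of the members called lower in KI only Rasd2 was called in Tg at neither age. At 5 weeks the KI table had Hrh3 at 7.20, 5.52 and 5.11 FPKM in WT/C57 and 5.29, 3.78 and 3.38 FPKM in KI, with overlap. Rasd2 stood there at 12.3, 8.76 and 7.03 FPKM in WT/C57 and 7.71, 6.04 and 5.44 FPKM in KI, also with overlap. Hrh3 in the Tg table was at 8.36, 8.09 and 9.06 FPKM in WT/FVB and 4.91, 5.23 and 6.04 FPKM in Tg at 5 weeks, where it was called (-0.65, adjusted p = 0.00188). In Tg at 12 weeks Hrh3 was at 10.7, 8.37 and 8.63 FPKM in WT/FVB and 7.61, 6.81 and 5.76 FPKM in Tg, without overlap but not called (-0.45, adjusted p = 0.0758), although a fit with a replicate block called it lower.

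Gng13, Grid2ip, Doc2b and Dagla, all low in Tg, were also called lower in KI at 12 weeks. Gng13 was at 375, 453 and 444 FPKM in WT/C57 and 234, 233 and 249.97 FPKM in KI (log2 fold change -0.82 ± 0.076 SE, adjusted p = 0.00261). Dagla was at 21.8, 24.5 and 25.1 FPKM in WT/C57 and 15.3, 14.9 and 14.6 FPKM in KI (log2 fold change -0.66 ± 0.061 SE, adjusted p = 0.00261). Grid2ip was at 19.4, 26.9 and 26.2 FPKM in WT/C57 and 15.2, 15.9 and 14.5 FPKM in KI (log2 fold change -0.65 ± 0.12 SE, adjusted p = 0.0246). In these 3 genes no KI library reached the lowest WT library. Doc2b was at 27.7, 30.4 and 31.7 FPKM in WT/C57 and 20.6, 21.1 and 19.98 FPKM in KI (log2 fold change -0.54), and Pcp2 at 612, 672 and 649 FPKM in WT/C57 and 514, 512 and 477 FPKM in KI (-0.36). Gad1 was at 222, 220.2 and 225 FPKM in WT/C57 and 184, 191 and 187 FPKM in KI and was called lower (-0.24, adjusted p = 0.0128). Arhgef33 (-0.49), Ebf2 (-0.42), Clmn (-0.40), Lhx5 (-0.37), Shank2 (-0.34) and Dner (-0.33) completed the members called lower.

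Ebf1 rose in KI at 12 weeks, where it was at 15.7, 17.5 and 17.1 FPKM in WT/C57 and 21.2, 21.97 and 21.0 FPKM in KI (log2 fold change 0.35 ± 0.052 SE, adjusted p = 0.0129), all KI libraries above all WT libraries. It was the sole member called in opposite directions in the 2 models. At 5 weeks in KI, Ebf1 was at 14.1, 15.4 and 15.2 FPKM in WT/C57 and 14.6, 17.7 and 17.3 FPKM in KI, with overlap and a log2 fold change of 0.15. Several genes with deep decreases in Tg were not called in KI at 12 weeks. Itpka was at 25.7, 36.7 and 35.2 FPKM in WT/C57 and 24.5, 25.2 and 23.5 FPKM in KI (-0.40, adjusted p = 0.103), Stk17b at 32.3, 42.3 and 37.8 FPKM in WT/C57 and 27.7, 31.6 and 28.0 FPKM in KI (-0.36, adjusted p = 0.0752), and Garnl3 at 49.0, 63.3 and 60.0 FPKM in WT/C57 and 46.7, 49.3 and 44.4 FPKM in KI (-0.29, adjusted p = 0.112). In each the lowest WT library was replicate 1. Rora, at 49.7, 55.0 and 54.3 FPKM in WT/C57 and 48.6, 52.7 and 50.6 FPKM in KI, had a log2 fold change of -0.064 with a 95% interval of -0.19 to 0.058, Skor2 one of -0.014 and Trim62 one of -0.0023.

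The number of members called in KI at 12 weeks depended on single libraries. Without WT replicate 1, the library with Hox and oligodendrocyte genes, 22 members were called, with 8 genes gained, Itpka, Stk17b, Garnl3, Slc9a3, Lhx1, Ppp1r17, Mtss1 and Baiap2, and Ebf2 lost. Without WT replicate 3, KI replicate 1 or KI replicate 3, 5 were called, and without KI replicate 2, 7. Dagla, Doc2b, Gng13, Hrh3 and Rasd2 were called in each of the 6 fits without 1 library. Ebf1, Grid2ip, Gad1 and Pcp2 each lost the call in 4 of the 6. Arhgef33 and Clmn lost it without WT replicate 3, KI replicate 1 or KI replicate 3. Dner, Lhx5 and Shank2 lost it in every fit but that without WT replicate 1, and Ebf2 lost it whichever library was left out. Dner, Ebf2, Lhx5 and Shank2 also lost the call with no filter on low values and with a replicate block.

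**Figure D3:**
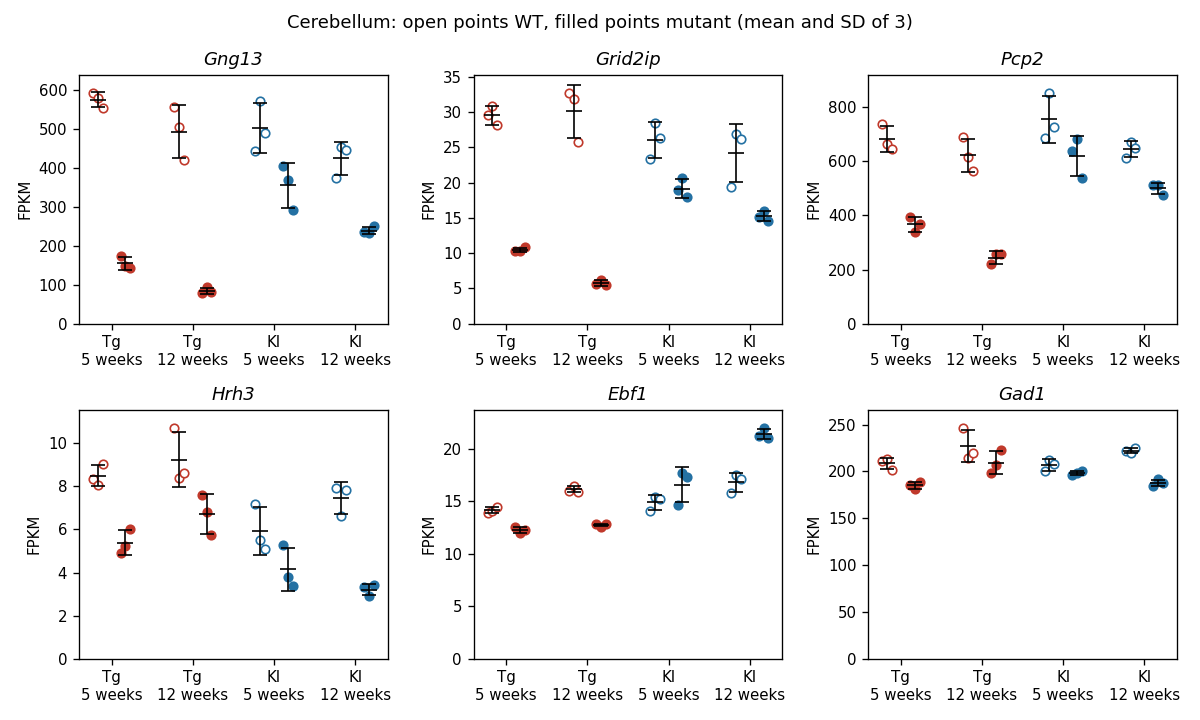
FPKM of 6 members in each cerebellum library; open points WT, filled points mutant (red Tg, blue KI), with the mean and SD of 3 libraries, each axis starting at 0. Of these 6, Gng13, Grid2ip and Pcp2 drop furthest in Tg, Hrh3 is lowest in KI at 12 weeks, Ebf1 moves up in KI and down in Tg, and Gad1 moves little.

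Whether the ratio differed between the models was tested as the difference of the 2 within-table effects, Tg minus KI. At 5 weeks 13 members were lower in Tg relative to KI and 0 higher, against 0.816% lower and 0.0471% higher of all genes. At 12 weeks 22 were lower, against 6.22%, and 3 higher, against 5.62%. All 13 genes of 5 weeks were among the 22 of 12 weeks. The differences at 12 weeks were largest for Gng13 (difference -1.71 ± 0.15 SE, adjusted p = 0.000129) and Grid2ip (difference -1.71 ± 0.17 SE, adjusted p = 0.000221), then Itpka (-1.63) and Stk17b (-1.50). Ebf1 was among them (difference -0.69 ± 0.067 SE, adjusted p = 0.000215). The 3 higher genes, where KI was the lower, were Hrh3 (difference 0.74 ± 0.17 SE, adjusted p = 0.0182), Rasd2 (difference 0.60 ± 0.10 SE, adjusted p = 0.00445) and Gad2 (difference 0.41 ± 0.11 SE, adjusted p = 0.0316). Not called at 12 weeks were Ebf2, Gad1, Kit, Pcp4l1, Skor2 and Trim62. Of these, Gad1 had a difference of 0.13 with a 95% interval of -0.054 to 0.31. Without 1 library, Gad2 lost the call in 7 of 12 fits, Hrh3 in 1, that without KI replicate 2 at 12 weeks, and Rasd2 in none. Of the 22 called lower at 12 weeks, all but Baiap2 and Prkg1 kept the call in every such fit. Of the 13 at 5 weeks, all but Clmn did.

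Across the 31 genes the log2 fold changes of the 2 models had a Pearson's r of 0.54 and a Spearman's rho of 0.50 at 5 weeks, and 0.38 and 0.49 at 12 weeks. This describes genes, which are not independent replicates and were all measured in the same 12 libraries.

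Few members were called for a ratio that differed between ages, which does not show that the ratios of the others stayed the same. The median difference of the members, 12 minus 5 weeks, was -0.29 in Tg, against -0.011 over all genes. In KI it was -0.099, against 0.016. In Tg, 26 of 31 members had a lower log2 fold change at 12 than at 5 weeks, but the difference between ages was called for 2, against 0.0775% lower and 0.00775% higher of all genes, and for 17 at an unadjusted p under 0.05, against 13.6%. The 2 called were Grid2ip (difference -0.87 ± 0.12 SE, adjusted p = 0.0267) and Itpka (difference -0.67 ± 0.099 SE, adjusted p = 0.031). Both calls were lost when 1 library was left out, unless it was WT replicate 3 or Tg replicate 2 at 12 weeks. Without Tg cerebellum 12 weeks WT replicate 3, the lowest WT library of that table, 12 members were called. In KI, 22 members were lower at 12 than at 5 weeks and 0 passed by limma, against 0% of all genes; at an unadjusted p under 0.05 they were 3, against 7.13%.

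In Tg, members with a larger WT ratio of cerebellum to inferior olive had lower log2 fold changes, which is given as a description over genes measured in the same libraries, with no test. To avoid shared libraries, the ratio of cerebellum to inferior olive was taken from the WT mice of the other strain. In Tg at 12 weeks the 7 genes over 10-fold higher in the cerebellum had a median log2 fold change of -1.86 and were called lower in 7 of 7, and the other 24 had -0.79 and 18 of 24. The 10-fold limit was chosen after the values were seen. Over these 31 genes Pearson's r was -0.62 and Spearman's rho -0.70. In Tg at 5 weeks r was -0.54 and rho -0.57. In KI r was -0.17 at 5 weeks and 0.065 at 12 weeks, the latter over 30 genes, since Arhgef33 shares an entry with Morn2 in the olive table that gives the WT/FVB ratio at 12 weeks. Hrh3 and Rasd2, both higher in the olive than in the cerebellum of WT mice, were among the 3 largest decreases in KI at 12 weeks. Kit, 5.25-fold higher in the cerebellum of WT/C57 at 12 weeks, was not called in either model.

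**Figure D4:**
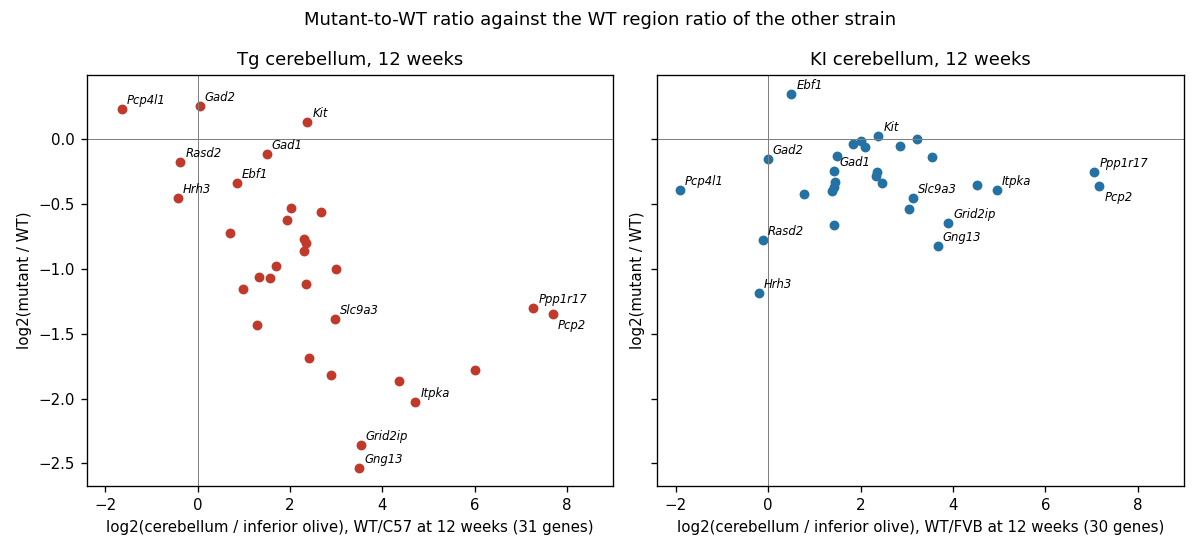
Log2 ratio of mutant to WT at 12 weeks against the log2 ratio of cerebellum to inferior olive in WT mice of the other strain, one point per gene, Tg left (31 genes) and KI right (30 genes). In Tg the genes with a higher ratio of cerebellum to inferior olive lie lower (Spearman's rho -0.70), and in KI Hrh3 and Rasd2 lie lowest on the left.

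Other lists of PC genes were also mostly called lower in Tg. The mGluR1 and IP3 calcium signalling genes had 11 of 14 tested called lower and 0 higher with a median log2 fold change of -0.73 in Tg at 5 weeks, and 12 of 13 tested called lower and 0 higher with a median log2 fold change of -1.08 at 12 weeks. The carbonic anhydrase-related Car8 (-1.71) and the IP3 receptor Itpr1 (-1.69) had the largest decreases at 12 weeks. In KI at 12 weeks this list had 2 of 14 tested called lower and 0 higher with a median log2 fold change of -0.25, the called genes being the phospholipase Plcb3 (-0.89) and the calcium pump Atp2a2 (-0.28). The further PC genes had 10 of 11 tested called lower and 0 higher with a median log2 fold change of -1.26 in Tg at 12 weeks, with Rgs8 (-2.27), Icmt (-1.77) and Cacna1g (-1.50) lowest, and 6 of 12 tested called lower and 0 higher with a median log2 fold change of -0.30 in KI at 12 weeks, with Foxp2 (-0.80), Pcp4 (-0.64) and Aldoc (-0.64) lowest. Both lists were written with these data known.

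Genes of other cell types also moved, and their part in the member values was not tested. In Tg at 5 weeks microglia had 0 of 9 tested called lower and 4 higher with a median log2 fold change of 0.29 (summed 84.7 to 95.5 FPKM in WT and 101 to 102 FPKM in the mutants), Bergmann glia and astrocytes had 0 of 9 tested called lower and 2 higher with a median log2 fold change of 0.040, and cerebellar interneurons had 0 of 8 tested called lower and 1 higher with a median log2 fold change of 0.090. Granule cells had 1 of 12 tested called lower and 0 higher with a median log2 fold change of 0.028 at that age, and oligodendrocytes 0 of 9 tested called lower and 0 higher with a median log2 fold change of 0.070. In KI at 5 weeks no gene of these lists was called. In Tg at 12 weeks the granule cell list had 4 of 12 tested called lower and 0 higher with a median log2 fold change of -0.31, with a summed level of 1815 to 2148 FPKM in WT and 1501 to 1688 FPKM in the mutants. Microglia had 0 of 8 tested called lower and 3 higher with a median log2 fold change of 0.58 (summed 87.7 to 135 FPKM in WT and 135 to 203 FPKM in the mutants), and oligodendrocytes 0 of 9 tested called lower and 2 higher with a median log2 fold change of 0.40 (summed 1790.4 to 2235 FPKM in WT and 2419 to 2946 FPKM in the mutants). Bergmann glia and astrocytes had 1 of 9 tested called lower and 2 higher with a median log2 fold change of 0.21, with Gfap at 1.02. Cerebellar interneuron genes, the other GABAergic cells, had 0 of 8 tested called lower and 1 higher with a median log2 fold change of 0.15 in Tg and 0 of 8 tested called lower and 0 higher with a median log2 fold change of -0.11 in KI. In KI at 12 weeks oligodendrocytes had 3 of 9 tested called lower and 0 higher with a median log2 fold change of -0.46 (summed 2157 to 3252 FPKM in WT and 1859 to 1879 FPKM in the mutants). Bergmann glia and astrocytes had 3 of 9 tested called lower and 0 higher with a median log2 fold change of -0.26. Granule cells had 0 of 12 tested called lower and 1 higher with a median log2 fold change of 0.23. Their summed levels were 1387, 2023 and 1934 FPKM in WT/C57 and 2055, 1952 and 2051 FPKM in KI, so that only WT replicate 1 lay far below the mutants. The highest oligodendrocyte sum was that of the same library. Choroid plexus genes had no call in any cerebellum table and varied between libraries within each genotype, from 20.8 to 1742 FPKM among the KI libraries at 12 weeks.

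In the inferior olive, a tissue without PCs, 1 member was called in the 4 tables. Several members were well expressed there, with WT/C57 means at 12 weeks of 211 FPKM for Pcp4l1, 78.5 FPKM for Gad1 and 71.2 FPKM for Dner. No member was called in Tg at 5 or 12 weeks (30 and 29 tested, 0% of all genes called at each age), and at an unadjusted p under 0.05 they were 1 and 3, against 6.58% and 3.45% of all genes. In KI, 0 of 29 were called at 5 weeks, against 0.0146% (3 at an unadjusted p under 0.05, against 6.04%), and 1 of 30 at 12 weeks, against 1.53% (8 at an unadjusted p under 0.05, against 13.3%). These 3 and 8 members of the KI olive were all lower, and so were the 3 of the Tg olive at 12 weeks. The 1 member of the Tg olive at 5 weeks was higher. The median log2 fold change of the members in the KI olive was -0.071 at 5 weeks and -0.091 at 12 weeks, against -0.0067 and -0.0056 over all genes. In the Tg olive it was 0.075 at 5 weeks and -0.043 at 12 weeks, against -0.0030 and -0.0020 over all genes. The called gene was Hrh3, at 10.5, 9.50 and 10.3 FPKM in WT/C57 and 5.85, 6.33 and 6.23 FPKM in KI (log2 fold change -0.71 ± 0.057 SE, adjusted p = 0.00211), so Hrh3 was lower in KI in both tissues at 12 weeks. At 5 weeks in the KI olive Hrh3 was at 9.78, 6.26 and 9.84 FPKM in WT/C57 and 7.20, 6.83 and 5.53 FPKM in KI, with overlap and no call (-0.38). In the Tg olive at 12 weeks it was at 10.8, 9.58 and 11.5 FPKM in WT/FVB and 10.4, 10.03 and 10.2 FPKM in Tg (-0.052, 95% interval -0.21 to 0.11). In the KI olive at 12 weeks Crh and Htr5b, the genes used as olive neuron markers, were called lower (-2.03 and -1.56), and whether this bears on Hrh3 was not tested.

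Cerebellar genes were measured at low levels in the olive libraries. In the Tg olive at 5 weeks Pcp2 was at 5.44, 4.46 and 4.93 FPKM in WT/FVB and 2.11, 21.96 and 1.28 FPKM in Tg, so that mutant replicate 2 stood far above the other libraries. The same library had the granule cell gene Gabra6 at 15.3 FPKM, against at most 2.90 FPKM in the others, and Ppp1r17 at 4.99 FPKM. Members called were 0 with and without it, the median log2 fold change being 0.075 with it and -0.029 without it. Slc9a3 was below the filter in all 4 olive tables and Arhgef33 in KI at 5 weeks, and Arhgef33 at 12 weeks in Tg was measured only jointly with Morn2.

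Mouse Atxn1 itself was called in no table by limma. In the Tg cerebellum it was at 10.1, 11.4 and 10.5 FPKM in WT/FVB and 12.0, 12.4 and 12.6 FPKM in Tg at 5 weeks (adjusted p = 0.0894), all Tg libraries above WT, and at 10.5, 10.2 and 10.9 FPKM in WT/FVB and 10.8, 10.6 and 10.2 FPKM in Tg at 12 weeks, with overlap. In the KI cerebellum it was at 9.43, 9.45 and 9.51 FPKM in WT/C57 and 9.79, 9.53 and 10.6 FPKM in KI at 12 weeks, all KI libraries above WT (log2 fold change 0.074). The largest differences were in the KI inferior olive, where it was at 5.98, 5.80 and 6.06 FPKM in WT/C57 and 7.13, 7.11 and 6.97 FPKM in KI at 5 weeks (log2 fold change 0.25, adjusted p = 0.649). At 12 weeks it was there at 6.39, 6.35 and 5.81 FPKM in WT/C57 and 7.31, 6.90 and 8.01 FPKM in KI (log2 fold change 0.25, adjusted p = 0.149), and at both ages all KI libraries were above WT. The human transgene is no entry of the mouse tables, and reads of it that matched mouse Atxn1 were not separated.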

How the data were processed

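The authors aligned 75-base paired-end reads to mm10 with TopHat2 2.1.0 and computed FPKM with Cufflinks 2.2.1 (versions and build per the submitters' processing notes) and Cuffnorm across the 6 libraries of a table, and deposited these FPKM values per gene and library with group averages and Cuffdiff fold changes, p-values and q-values, which were not used here. Entries without a gene symbol, 9.16% to 13.1% of a table, were left out. Where a symbol had several entries, the one with the highest mean was kept (Pcp2, Grid2ip, Ptprr and Lhx5 in some tables). Mutants were compared with the WT libraries of their table by limma 3.58.1 in R 4.3.3, with a mean-variance trend, on log2(FPKM + 0.1), over genes whose mean reached 0.5 FPKM in WT and in mutants. Fold changes on this scale understate those of low genes. Differences between models or ages were tested over the 12 libraries of 2 tables. Tests were tried on simulated data, where the interaction fits made somewhat more false calls than their nominal rate if a gene's spread differed between tables; the limit on false calls used in this test was set after its first draws were seen. Members and lists were chosen with earlier results of these data known. Each library's values are given for members called in at least 1 cerebellum table that were among the 8 lowest in Tg, the 5 lowest or 3 highest in KI at 12 weeks, or called in opposite directions, and for Pcp2, Gad1 and Rora. Genes outside the list come from the other lists, at most the 3 largest called changes, and Atxn1. The paper describes the controls as WT littermates, but the labels do not say which libraries share a litter. The p-values therefore measure the spread between these mice. Same-numbered WT and mutant libraries deviated together, with all 3 correlations over 0.1, in the Tg olive at 12 weeks, where the replicate block called 0 members. Alternatives were another pseudocount (1), other filters, rescaling by median ratios, a replicate block and leaving out each library.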

Additional observations from a re-analysis of the deposited data

Results flagged for a closer look

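These results were marked because the mutant-to-WT ratio differed between models or between ages by the test of the difference itself, with adjusted p under 0.05 by limma. Values are differences of log2 fold changes. At 5 weeks, Tg minus KI was among the signalling genes Gng13 -1.39, Garnl3 -0.91, Arhgef33 -0.90, Ppp1r17 -0.76, Itpka -1.06, Stk17b -1.29 and Ptprr -0.52. Among the synapse and scaffold genes it was Grid2ip -1.05, Mtss1 -0.55 and Doc2b -1.01. Among the surface and transport genes it was Dner -0.71, Clmn -0.60 and Slc9a3 -0.91. At 12 weeks, Tg minus KI was among the transcription factors Rora -0.47, Lhx1 -0.73, Lhx5 -0.78 and Ebf1 -0.69. Among the signalling genes it was Pcp2 -0.98, Gng13 -1.71, Garnl3 -1.40, Arhgef33 -1.29, Ppp1r17 -1.04, Prkg1 -0.58, Itpka -1.63, Stk17b -1.50 and Ptprr -0.95. Among the synapse and scaffold genes it was Grid2ip -1.71, Shank2 -0.78, Baiap2 -0.52, Mtss1 -0.85, Dagla -0.77 and Doc2b -1.28. Among the surface and transport genes it was Dner -0.74, Clmn -0.66 and Slc9a3 -0.93. At 12 weeks the differences in the other direction, KI being the lower, were Gad2 0.41, Rasd2 0.60 and Hrh3 0.74. Between ages in Tg, 12 minus 5 weeks, the difference was Itpka -0.67 and Grid2ip -0.87, and both calls depended on single libraries. Between models, so did the calls of Clmn at 5 weeks and of Baiap2, Prkg1, Gad2 and Hrh3 at 12 weeks.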

How the results depend on the processing

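Members called in the KI cerebellum at 12 weeks, 15 in the fit reported, were 5 to 22 in fits that each omitted 1 library, 11 with no filter on low values and 10 with a replicate block. Members called for a ratio that differed between ages in Tg, 2 in the fit reported, were 0 to 12 in such fits. The median log2 fold change of the members in Tg at 5 weeks spanned -0.78 to -0.68 in fits that each omitted 1 library, and was -0.85 without Gad1, Gad2, Kit, Rora and Ebf2, genes that other cerebellar cells also make. The cause of these shifts was not tested. In 7 of the 8 tables same-numbered libraries did not all deviate together by the correlation limit of 0.1, which does not exclude pairing. The replicate block gave 25 and 27 members called in Tg at 5 and 12 weeks, and 18 and 25 whose ratio differed between models. In Tg it lost Gad1 at 5 weeks, and at 12 weeks it gained Gad2 as higher and Hrh3 as lower. In the Tg cerebellum, counts of calls stayed at 24 to 25 at 5 weeks and 23 to 25 at 12 weeks without 1 library. No called member changed direction under any alternative run. With 3 libraries a group, an exact permutation test of 1 gene cannot go below p = 0.1, and the depth behind each FPKM value is unknown.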
